A study of Mus musculus with 9 samples.

Results

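The catalogue probes described here were the 39430 probes, of 91188 non-control probes on the array, whose names start with A_51_P, A_52_P, A_55_P, A_65_P or A_66_P. They were chosen by name alone, with no measured value, and spots that carry the same probe were averaged. A_55 contributed 25000 probes, A_51 7048, A_52 5143, A_66 2003 and A_65 236. The other 51758 probes, named A_30 (15955) or mmu (35803), served only for comparison. The samples were stomachs of C57 mice, a common inbred strain, that had received X-rays at 0 Gy (mock), 6 Gy or 12 Gy at 2 Gy per minute. Tissue was collected 7 days later. Every group also had ketamine and xylazine anaesthesia, per the labels, and the labels give neither age nor sex. There were 9 arrays, 3 per group, each with RNA of 1 sample. The labels speak of the mouse that gave the tissue but not of how animals were assigned to replicates, so p-values measure the spread between these samples.

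On a one-colour expression array each spot holds many copies of a single short DNA strand. The RNA of a sample is amplified into dye-labelled complementary RNA, which binds the strands it matches, and the brightness of the spot follows the amount bound. Radiation injury of the stomach is known for loss of dividing gland cells, bleeding, inflammation and later repair. Each catalogue probe is 60 bases long and reads in the sense direction of its target. The deposited scanner values give every catalogue probe its own name in place of a gene, and no genome position. Gene lists for p53 targets, proliferation, matrix and gastric cell types could therefore not be applied, and the stomach label was not checked against its markers.

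The sequences of the probes with the smallest p in each direction of each comparison are shown first, because these probes carry the comparisons below and a reader can place them by sequence. Capitals mark the hexamer AATAAA, the most common polyadenylation signal of mammalian transcripts, which 1 of them holds.
A_55_P2032081: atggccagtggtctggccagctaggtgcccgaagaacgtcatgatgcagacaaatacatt
A_51_P473219: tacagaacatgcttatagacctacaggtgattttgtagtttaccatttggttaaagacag
A_55_P1989514: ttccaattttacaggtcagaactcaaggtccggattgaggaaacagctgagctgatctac
A_55_P2032355: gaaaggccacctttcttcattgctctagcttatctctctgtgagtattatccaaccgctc
A_55_P2375121: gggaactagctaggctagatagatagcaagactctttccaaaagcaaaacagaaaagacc
A_55_P2184996: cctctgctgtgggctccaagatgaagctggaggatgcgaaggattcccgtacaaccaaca
A_55_P1962747: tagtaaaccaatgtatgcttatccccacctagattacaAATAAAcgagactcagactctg
A_55_P1993263: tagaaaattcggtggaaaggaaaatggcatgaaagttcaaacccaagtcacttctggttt
A_55_P2106489: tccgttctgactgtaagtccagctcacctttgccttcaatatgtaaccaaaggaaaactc

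The probe A_55_P2085984 is shown with A_55_P2031631, a catalogue probe that was not chosen by its p, because 40 bases are common to both. The capitals mark those bases.
A_55_P2085984: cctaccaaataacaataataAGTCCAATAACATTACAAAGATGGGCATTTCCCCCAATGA
A_55_P2031631: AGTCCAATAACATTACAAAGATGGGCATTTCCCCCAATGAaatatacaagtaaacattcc

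The simple repeats were a bright sequence class among the catalogue probes, and 1 example is shown for each 2-base unit found. The capitals mark the repeat, which runs for 22, 22, 24 and 28 bases in the order printed.
A_55_P1972915: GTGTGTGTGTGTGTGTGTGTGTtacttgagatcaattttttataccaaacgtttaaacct
A_55_P2287260: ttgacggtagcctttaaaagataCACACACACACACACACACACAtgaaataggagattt
A_55_P2152901: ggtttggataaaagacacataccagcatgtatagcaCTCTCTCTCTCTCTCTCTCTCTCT
A_55_P2033215: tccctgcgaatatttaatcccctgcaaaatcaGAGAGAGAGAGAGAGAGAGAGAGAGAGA

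Some features of the whole array bear on every value. The arrays lie on 3 slides: mock replicate 1 is alone on slide 1, mock replicates 2 and 3 share slide 2 with replicates 1 and 2 of 6 Gy, and the 12 Gy arrays share slide 3 with replicate 3 of 6 Gy. No slide holds both mock and 12 Gy. The 6 Gy arrays on slides 2 and 3 link them, so 12 Gy and mock were also compared with slide as a block, a fit to which mock replicate 1 adds nothing. Between 31.6% and 40.0% of all probes were well above background, the scanner software's flag for detection, lowest on mock replicate 1. A level below is the log2 processed intensity minus the log2 of that array's 75th percentile over non-control spots, which was 49.0 to 76.7 on the linear scale.

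Catalogue probes were detected more often than the other probes on every array. On the mock arrays 40.9%, 50.5% and 47.0% of all catalogue probes were well above background, on the 6 Gy arrays 47.9%, 44.2% and 50.2%, and on the 12 Gy arrays 47.4%, 47.1% and 49.4%. The means were 46.1% ± 4.87 in mock, then 47.4% ± 3.04 at 6 Gy and 47.9% ± 1.23 at 12 Gy (SD, 3 arrays each), and the groups overlapped. For the other probes the means were 28.4%, 27.8% and 27.8%. Each probe has 1 spot, apart from 20 A_66 probes with 10 spots each, whereas A_30 and mmu probes have at least 2.

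The name series differed in how often they were detected, in the same order on each array. The A_51 probes were highest, with group means of 54.1% in mock, then 56.3% at 6 Gy and 57.0% at 12 Gy. A_65 followed at 51.8%, 54.9% and 55.6%, and A_52 at 48.3%, 50.4% and 51.2%. A_55 stood at 43.8%, 44.7% and 45.1%, and A_66 was lowest at 40.7%, 41.7% and 42.0%. In each series the SD between mock arrays, 4.47 to 6.30 percentage points (n = 3), was larger than the difference between the means of mock and of either dose.

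Detection was mostly all or none. Of the catalogue probes 14705 (37.3%) were well above background on all 9 arrays, 17131 (43.4%) on none and 7594 (19.3%) on 1 to 8. Few probes split by group: 24 (0.061%) were detected on every irradiated array and no mock array, and 7 (0.018%) on every mock array and no irradiated array. A further 10 (0.025%) were detected on all 12 Gy arrays alone and 5 (0.013%) on all 6 Gy arrays alone. The shares are of all catalogue probes. Such patterns were not counted over the other probes, so nothing particular to the catalogue probes is read from them. A larger set of 1098 was detected on all irradiated arrays and on 2 of 3 mock arrays, and 925 of these (84.2%) were missing on mock replicate 1, the array alone on its slide. Its part in that pattern was not tested.

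The level of a catalogue probe, averaged over the arrays, ran from -3.15 to 12.15 with a median of -1.06. Among the 14705 probes detected on all arrays the median was 2.05, with a 5th percentile of 0.21 and a 95th of 6.18. In this set, which the filter does not tie to a group, the median levels were 1.91, 1.95 and 1.93 on the mock arrays, then 2.20, 2.20 and 2.06 at 6 Gy, and 2.04, 2.12 and 2.20 at 12 Gy. Every irradiated array was above every mock array. The other probes detected on all arrays stood at 1.40, 1.51 and 1.57 in mock, then 1.56, 1.53 and 1.51 at 6 Gy, and 1.54, 1.51 and 1.43 at 12 Gy, with overlap.

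The distance of the catalogue probes from the other probes on the same array needs no scaling between arrays. It was 0.51, 0.44 and 0.36 log2 units on the mock arrays, then 0.64, 0.66 and 0.55 at 6 Gy, and 0.50, 0.61 and 0.77 at 12 Gy. The 6 Gy arrays lay above the mock arrays, also on slide 2, where mock stood at 0.44 and 0.36 and 6 Gy at 0.64 and 0.66. One 12 Gy array lay just below mock replicate 1. After normexp background correction with an offset of 50 the same distances were 0.35, 0.32 and 0.26 in mock, then 0.48, 0.46 and 0.40 at 6 Gy, and 0.36, 0.44 and 0.58 at 12 Gy.

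Signal repeatability could be read within arrays from the 20 A_66 probes printed in 10 spots. Of these 10 were detected on all arrays and 10 on none. Among the 10 detected ones the SD between spots of 1 array had a median of 0.101 log2 units, from 0.079 to 0.156. The SD between arrays was taken on the means of the 10 spots within each group and then averaged over the 3 groups. This average had a median of 0.233 and was larger than the spot SD for 10 of 10 probes. In a single group the SD between arrays could be smaller, as for A_66_P140886 at 12 Gy (0.023 against 0.088). The 14695 single-spot probes detected on all arrays had a median SD between arrays of 0.244, averaged over groups in the same way. By group the median SD of all catalogue probes on all 9 arrays was 0.262 in mock, then 0.204 at 6 Gy and 0.225 at 12 Gy.

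The higher dose was compared with mock to see which targets of the catalogue probes differed. No probe passed: of 18150 catalogue probes tested limma called 0 (0% of all 32004 tested probes), and the smallest Benjamini-Hochberg adjusted p was 0.128. Before adjustment, 2744 catalogue probes were higher at 12 Gy with p under 0.05, 15.1% of the catalogue probes tested, where the share over all tested probes was 11.9%. There were 494 lower, 2.72%, where the share over all tested probes was 5.78%. The balance towards higher signal, 84.7%, depended on the scaling: 1823 were higher and 823 lower after quantile normalization (68.9% higher). With each array centred on its commonly detected probes, 1594 were higher and 914 lower (63.6% higher). With 1 array left out limma called 2 catalogue probes without mock replicate 1, 1 without mock replicate 3 and 2 without 12 Gy replicate 3. The fit that takes slide as a block made 0 calls, with 1809 higher and 249 lower before adjustment, and without the filter on dim probes the counts were 2633 and 1272. Leaving out 12 Gy replicate 2 took the higher count to 1750, and leaving out mock replicate 1 took the lower count to 802. All 12 Gy arrays lay above all mock arrays for 3430 catalogue probes, 18.9% against 15.7% of all tested probes, and below them for 690, 3.80% against 7.31%.

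Among probes higher at 12 Gy, A_55_P2032081 and A_55_P2085984 had the smallest p. A_55_P2032081 read 1.20, 1.84 and 1.05 on the mock arrays, then 3.05, 3.60 and 3.17 at 6 Gy and 3.64, 3.36 and 4.16 at 12 Gy. The irradiated arrays lay more than 1 log2 unit above the mock arrays, and the doses overlapped. The difference at 12 Gy was 2.36 with a standard error of 0.28 (limma, adjusted p = 0.128). A_55_P2085984 lay between -0.09 and 0.05 in mock, at 0.71, 0.58 and 0.81 at 6 Gy and at 1.03, 1.15 and 1.30 at 12 Gy, so that the 3 groups did not overlap. Its difference was 1.17 ± 0.16 (SE) at 12 Gy and 0.71 ± 0.16 (SE) at 6 Gy.

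The neighbouring probe A_55_P2031631, which shares 40 bases with A_55_P2085984, read 0.34, 0.29 and 0.05 in mock, then 0.85, 0.73 and 0.92 at 6 Gy and 1.21, 0.70 and 1.39 at 12 Gy. Its mock arrays lay below all irradiated arrays, and the doses overlapped. The difference from mock was 0.87 ± 0.21 (SE) at 12 Gy and 0.61 ± 0.21 (SE) at 6 Gy, with limma's adjusted p of 0.134 and 0.234. The shared bases can bind the same RNA on the same arrays, so the second probe repeats the spot and not the sample.

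Among probes lower at 12 Gy, A_55_P1989514 and A_55_P2032355 came first. A_55_P1989514 was well above background on all mock arrays and on no irradiated array. It read -1.08, -1.50 and -1.16 at 6 Gy and -1.37, -1.07 and -1.44 at 12 Gy, against a mock mean of -0.14 ± 0.23 (SD, n = 3). By the measured means it was 2.22-fold lower at 12 Gy and 2.15-fold lower at 6 Gy. A fold given below as at least is a bound that divides the mean of the brighter group by that of the dimmer one. In the dimmer group each array then counts with the higher of the probe's own level and the lowest level of any detected probe. The other folds are ratios of measured means and not lower limits. A_55_P2032355 read 0.50, 0.37 and 0.21 in mock, then -1.22, 0.03 and -0.49 at 6 Gy and -0.90, -1.65 and -1.62 at 12 Gy. It was detected on 3 mock arrays, 2 arrays at 6 Gy and none at 12 Gy. There it was 3.37-fold lower by the measured means, 0.36 in mock and -1.39 at 12 Gy. Both entered the test only through the mock arrays, and limma's adjusted p was 0.128. With normexp the differences at 12 Gy were -0.38 and -0.63, so the folds were smaller under that correction.

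The lower dose was compared with mock in the same way. Limma called 0 of 18150 catalogue probes (0% of all tested), and no Benjamini-Hochberg adjusted p was under 0.189. Before adjustment, 2798 were higher at 6 Gy with p under 0.05, 15.4% against 11.5% of all tested probes. There were 349 lower, 1.92% against 4.62%. The share higher was 88.9%, and 68.6% after quantile normalization (1337 higher, 613 lower). With each array centred on its commonly detected probes it was 56.1% (1021 higher, 799 lower). With 1 array left out limma called 1 catalogue probe without mock replicate 1 and 1 without 12 Gy replicate 2. Leaving out 6 Gy replicate 1 took the higher count to 1609. With no filter on dim probes the counts became 2382 and 1029. On slide 2 alone, with 2 arrays from either group, limma called 0, and before adjustment 3794 were higher and 441 lower with p under 0.05. The arrays of the groups did not overlap for 4057 catalogue probes that were higher, 22.4% against 16.9% of all tested, and 539 that were lower, 2.97% against 6.36%.

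A_51_P473219 followed A_55_P2032081 among the probes higher at 6 Gy. It read 0.46, 0.40 and 0.46 in mock, then 1.51, 1.48 and 1.31 at 6 Gy and 1.13, 1.19 and 1.24 at 12 Gy. The 3 groups did not overlap, with the 6 Gy arrays highest. The difference was 0.99 ± 0.15 (SE) at 6 Gy and 0.75 ± 0.15 (SE) at 12 Gy, and limma's adjusted p was 0.189 and 0.128. The direct difference between the doses was -0.25 ± 0.15 (SE), with an adjusted p of 0.9999. Within slide 2 the 6 Gy differences were 1.06 for A_51_P473219 and 1.88 for A_55_P2032081.

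The probes lower at 6 Gy with the smallest p were A_55_P2375121 and A_55_P2184996. A_55_P2375121 read 0.54, 0.15 and 0.20 in mock and -2.34, -2.51 and -2.16 at 6 Gy, where it was not detected. On the 12 Gy arrays it read -0.38, -1.41 and 0.16 and was detected on 2 arrays, and 1 array lay within the mock range. It was at least 4.67-fold lower at 6 Gy than in mock, with means of 0.30 and -2.33. It entered the test only through the mock arrays, where it is high, so no support is drawn from its limma adjusted p, which was 0.033 without 12 Gy replicate 2. A_55_P2184996 read -0.09, -0.43 and -0.54 in mock, then -1.49, -1.51 and -1.34 at 6 Gy and -0.99, -0.86 and -0.95 at 12 Gy. It was detected on all 3 mock arrays, through which alone it entered the test, and on none of the irradiated ones. By the measured means it was 2.13-fold lower at 6 Gy and 1.5-fold lower at 12 Gy. Limma's adjusted p at 6 Gy was 0.189 for both A_55_P2375121 and A_55_P2184996. Their log2 differences at 6 Gy were -0.77 and -0.33 with normexp, against -2.63 and -1.09 without it. The bound of 4.67-fold therefore does not hold under that correction.

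Between 12 Gy and 6 Gy limma called 0 of 18150 catalogue probes (0% of all tested), and the smallest Benjamini-Hochberg adjusted p was 0.9999. Before adjustment, 202 were higher at 12 Gy with p under 0.05, 1.11% against 1.4% of all tested probes, and 297 lower, 1.64% against 1.91%. With that centring 260 were higher and 222 lower. Without the filter on dim probes they were 495 and 607, and with slide as a fixed block 319 and 197. Within slide 3, where 6 Gy has a single array that is assumed to vary like the others, they were 266 and 136. Without 12 Gy replicate 3 limma called 2. The unadjusted counts moved with single arrays: without 6 Gy replicate 3 it was 578 higher and 521 lower, without 6 Gy replicate 2 it was 114 and 133, and without 12 Gy replicate 3 it was 167 and 345. The doses did not overlap for 462 catalogue probes higher at 12 Gy, 2.55% against 2.92% of all tested, and 1064 lower, 5.86% against 6.02%. A moderated F test over the 3 groups called 0 (0% of all tested), with 2632 at an unadjusted p under 0.05, 14.5% against 14.3% of all tested probes.

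A_55_P1962747, the probe with AATAAA, had the smallest p among those higher at 12 Gy. It read 1.33, 1.42 and 1.24 in mock, then 0.99, 1.70 and 1.30 at 6 Gy and 2.34, 2.55 and 2.53 at 12 Gy. Each 12 Gy array lay above every other array, and mock and 6 Gy overlapped. The difference of 12 Gy from 6 Gy was 1.14 ± 0.20 (SE), with limma's adjusted p of 0.9999, and within slide 3 it was 1.17. Against mock it was also 1.14 ± 0.20 (SE), with an adjusted p of 0.128. A_55_P2375121, described above, was the other probe higher at 12 Gy, at least 2.61-fold above 6 Gy. With normexp this difference was 0.43, so that bound does not hold under that correction.

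A_55_P1993263 and A_55_P2106489 led the probes lower at 12 Gy than at 6 Gy. A_55_P1993263 read -1.33, -0.52 and -0.78 in mock, then -0.71, -0.49 and -0.83 at 6 Gy and -1.89, -2.21 and -1.96 at 12 Gy, where it was not detected. The 12 Gy arrays lay below all others, 2.54-fold lower than 6 Gy by the measured means. It was detected on 2 mock arrays and on 3 arrays at 6 Gy. It entered the test only through the 6 Gy arrays, where it is high, so its difference supports nothing. Limma's adjusted p was 0.9999. With normexp the log2 difference was -0.33, smaller in size than the -1.35 without it. A_55_P2106489 read 2.91, 3.11 and 3.0 in mock, then 3.35, 3.65 and 3.01 at 6 Gy and 2.41, 2.47 and 2.11 at 12 Gy. It was detected on all 9 arrays and the 12 Gy arrays were again lowest. The difference from 6 Gy was -1.0 ± 0.20 (SE), with limma's adjusted p of 0.9999. Within slide 3 this difference was -0.68.

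Over the probes detected on all 9 arrays the median log2 difference of the catalogue probes was 0.18 at 12 Gy and 0.23 at 6 Gy, against 0.01 and 0.06 for the other probes. Over the tested catalogue probes it was 0.19 and 0.23. These medians move with the scaling: they were 0.07 and 0.09 over probes on all arrays after quantile normalization, 0.06 and 0.07 relative to the median of detected probes, and 0.17 and 0.17 with normexp. The series ranged from 0.15 (A_55) to 0.25 (A_65) at 12 Gy and from 0.20 (A_55) to 0.28 (A_52) at 6 Gy. A difference of 2-fold or more was seen at 12 Gy for 247 catalogue probes higher, 1.68% against 1.36% of all probes on all arrays, and for 64 lower, 0.435% against 0.744%. At 6 Gy there were 131 higher, 0.891% against 0.669%, and 38 lower, 0.258% against 0.483%. The 5th and 95th percentiles of the differences were -0.43 and 0.75 at 12 Gy and -0.34 and 0.72 at 6 Gy.

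The base composition of the catalogue probes moved with both detection and difference. Catalogue probes held on average 42.1% G or C, against 41.2% in the other probes. Detection on single arrays climbed from 15.3% of values for probes with 18 or fewer G or C bases to 82.1% for those with 34 or more. Over probes on all 9 arrays the median difference at 12 Gy was 0.40 with 18 or fewer such bases, 0.30 with 19 to 21, 0.24 with 22 to 24, 0.18 with 25 to 27, 0.13 with 28 to 30 and 0.07 with 31 to 33. At 6 Gy it was 0.32 in the first of these bins and 0.18 in the last. The other probes fell less evenly at 12 Gy: 0.13 with 19 to 21 such bases, 0.04 with 22 to 24 and -0.02 with 25 to 27. They had 0.004 with 28 to 30 and -0.04 with 31 to 33. At 6 Gy the other probes had 0.14, 0.06, 0.04, 0.06 and 0.07 in the same bins, with no steady fall.

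The same pattern within arrays compares the 2509 probes with at most 21 G or C bases and the 3069 with at least 31. The median level of the first minus the second was -0.46, -0.72 and -0.81 on the mock arrays, then -0.58, -0.56 and -0.43 at 6 Gy and -0.40, -0.39 and -0.33 at 12 Gy. The 12 Gy arrays lay above all mock arrays, 6 Gy and mock overlapped, and the mock array alone on slide 1 was the closest to the irradiated ones. The median difference from mock of the first set exceeded that of the second by 0.23 at 12 Gy and by 0.11 at 6 Gy. It was 0.18 within slide 2 for 6 Gy. Leaving out mock replicate 3 gave 0.17 and 0.042, and leaving out mock replicate 1 gave 0.35 and 0.22. The other probes detected on all arrays were split at the same limits. There the median level of the first set minus the second was -0.57, -0.84 and -0.88 on the mock arrays. It was -0.71, -0.81 and -0.63 at 6 Gy and -0.57, -0.63 and -0.52 at 12 Gy, and mock overlapped with both doses. The part of base composition in the differences of single probes was not tested.

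The hexamer AATAAA, searched on the printed strand only, stood in 4965 catalogue probes (12.6%), against 10.9% of all probes of this length. The share was close to the 12.2% of mmu probes, while A_30 probes had 3.70%. It was in 16.4% of A_55 probes but in 5.32% of A_51 and 4.92% of A_52 probes. Its reverse complement TTTATT stood in 4.03%. The last AATAAA began in bases 31 to 60, counted from the 5′ end, in 84.1% of the probes that hold it. At equal composition, 22 to 24 G or C bases, 31.2% of the 1357 probes with the hexamer and 31.4% of the 6189 without it were detected on all arrays.

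A run of at least 20 bases of a repeated 2-base or 3-base unit was found in 152 catalogue probes and in 0 of the other probes. The 52 probes with a GT run, the 24 with CA, the 6 with CT and the 5 with GA were detected on every array. Their median levels were 6.30 for GT, 7.57 for CA, 7.93 for CT and 3.97 for GA, while 7.12% of all catalogue probes reached a level of 4. Of the 40 probes with a GAA run only 23 were detected on all arrays, with a median level of 0.85 over the 40. Such runs occur at many places in the mouse genome, so these probes cannot be assigned to a single transcript.

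Most repeat classes overlapped between the dose groups. The GT probes had medians of 6.76, 6.30 and 6.01 in mock, then 5.95, 5.99 and 6.62 at 6 Gy and 6.46, 6.38 and 6.13 at 12 Gy, with all groups overlapping. The CA probes had 6.99, 7.17 and 7.83 in mock, then 7.72, 7.66 and 7.55 at 6 Gy and 7.72, 7.74 and 7.68 at 12 Gy. There the irradiated arrays fell within the mock range. The GA probes read 3.64, 3.76 and 3.07 in mock, then 4.32, 3.95 and 4.46 at 6 Gy and 4.60, 3.76 and 4.17 at 12 Gy, and the lowest 12 Gy array was level with the highest mock array to 2 decimals. For A_55_P2152901, the CT example, the levels were 7.83, 7.49 and 8.28 in mock, then 7.36, 7.73 and 7.86 at 6 Gy and 7.52, 7.97 and 7.39 at 12 Gy, again with overlap.

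Probes that share sequence gave a check of the measurements. Among catalogue probes free of simple repeats there were 470 pairs sharing at least 20 bases, as A_55_P2085984 and A_55_P2031631 do, and both members were detected on all arrays in 160. Their mean levels differed by a median of 0.49 log2 units, by 2 or more in 19 pairs and by 4.81 at most. In 25 pairs 1 probe was detected on all arrays and the other on none. Across the 160 pairs, which share arrays and samples, the log2 differences of the paired probes had a Pearson r of 0.586 at 12 Gy and 0.689 at 6 Gy.

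A further 1955 pairs joined a catalogue probe with an A_30 or mmu probe, and both were detected on all arrays in 377. Across these pairs, on the same arrays, r was 0.769 at 12 Gy and 0.809 at 6 Gy. These r are not set against those of the catalogue pairs, because the pairs differ in kind. The median overlap was 54 bases here and 43 between catalogue probes, and A_30 and mmu probes average at least 2 spots. The median difference at 12 Gy was 0.14 for the catalogue members and 0.13 for their partners, and at 6 Gy 0.21 and 0.18. The catalogue member exceeded its partner by a median of 0.02 at 12 Gy and 0.01 at 6 Gy. Where sequence was shared, the medians of catalogue and other probes were thus closer than over all probes detected on all arrays, where they were 0.18 against 0.01 at 12 Gy and 0.23 against 0.06 at 6 Gy.

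Some catalogue probes could be given a gene through RefSeq windows around gene starts on mouse build GRCm38.p6, which cover 250 bases before to 50 bases after each start. This match was chosen after the data were seen. It asked for at least 30 bases from the 5′ end of the probe on the sense strand of 1 gene, of which at least 20 lay after the start, and no simple repeat. It named 72 catalogue probes, and the bases beyond the window were not compared. Of these 17 were detected on all 9 arrays, 43 on none and 12 on 1 to 8.

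Genes for smell receptors, which belong to sensory neurons of the nose, made up 17 of the 72. Of the 17 probes with an olfactory receptor symbol 15 were detected on no array, against 28 of the 55 others. The exceptions were Olfr521 and Olfr609, each matched over only 30 bases and detected on all arrays. Olfr521 (A_51_P291766, chr7:99767184-99767213) stood at 1.93 ± 0.43 in mock, then 2.00 ± 0.29 at 6 Gy and 1.87 ± 0.38 at 12 Gy (SD, n = 3). Olfr609 (A_51_P281608, chr7:103492827-103492856) stood at 1.04 ± 0.04, 1.12 ± 0.09 and 1.02 ± 0.14, and its groups overlapped. Other undetected probes matched Krtap15, a hair keratin-associated protein, Lim2, a lens membrane protein, and the prolactin family genes Prl3c1 and Prl6a1. The probe matched to Mttp, which loads lipid onto lipoproteins in gut and liver, was also undetected. Only 23 of its 60 bases lay after the gene start, so it says little about that transcript. The undetected genes named here were chosen after their values were seen. Of the 55 probes without an olfactory receptor symbol 15 were detected on all 9 arrays, those matched to Crxos and Pdzd7 among them. Whether detection followed tissue was not tested.

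The levels of 5 probes detected on all arrays are given as examples, chosen after their values were seen. Sec61b, a subunit of the channel that moves new proteins into the endoplasmic reticulum, stood at 4.12 ± 0.14 in mock, then 4.14 ± 0.14 at 6 Gy and 4.17 ± 0.21 at 12 Gy (SD, n = 3). Polr2i, a subunit of RNA polymerase II, stood at 6.23 ± 0.60, 5.89 ± 0.81 and 5.83 ± 0.53, and H3c3, a replication-dependent histone H3 with close copies, at 3.70 ± 0.45, 4.01 ± 0.18 and 4.02 ± 0.36. Ccl19, a chemokine that draws lymphocytes and dendritic cells, stood at 1.42 ± 0.15, 1.66 ± 0.04 and 1.59 ± 0.08, on a probe with only 33 bases after the gene start. Pomp, which helps assemble the proteasome, stood at 0.53 ± 0.20, 0.58 ± 0.23 and 0.59 ± 0.59. Detection did not follow such roles throughout: Timm10b, of the mitochondrial protein import machinery, was detected on no array, and Etfb, a subunit of a mitochondrial electron carrier, on 8. None of the 5 passed limma's test against mock, with an adjusted p from 0.443 for Ccl19 to 0.964 for Sec61b, both at 6 Gy.

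Hbb-bs, a beta globin chain of haemoglobin made in red cell precursors, had the smallest p at both doses among the probes matched to a gene. The probe A_55_P2108151 matched 46 bases at chr7:103827879-103827924 on the minus strand, beginning 4 bases after the gene start. It read -0.47, -0.10 and -0.39 in mock, then 2.16, 1.61 and 2.25 at 6 Gy and 2.07, 1.95 and 0.44 at 12 Gy. All irradiated arrays lay above all mock arrays, and 12 Gy replicate 3 lay closest to mock. The difference was 2.33 ± 0.40 (SE) at 6 Gy and 1.81 ± 0.40 (SE) at 12 Gy, with limma's adjusted p of 0.189 and 0.128, and neither passed. It was 2.13 within slide 2 at 6 Gy and 1.36 with slide as a fixed block at 12 Gy, and 1.40 and 1.08 with normexp. With each array left out in turn it was 2.20 to 2.53 at 6 Gy and 1.51 to 2.33 at 12 Gy. Globin genes are near-identical copies, so the probe may also bind another beta globin. It is the only one of the 10 erythroid genes listed for this tissue that a catalogue probe could be matched to, and the amount of blood in the samples was not tested.

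Defb22, a beta-defensin of the antimicrobial peptide family, followed at 12 Gy. A_51_P277563 matched 48 bases at chr2:152490089-152490136. It read -1.46, -2.15 and -1.75 in mock, then -0.66, -2.67 and 0.11 at 6 Gy and 0.02, 0.36 and -0.01 at 12 Gy, and was detected on 3 arrays at 12 Gy, 2 at 6 Gy and none in mock. It entered the test only through the 12 Gy arrays, where it is high, so its difference supports nothing. The measured means were -1.79 in mock and 0.13 at 12 Gy, 3.76-fold apart, with limma's adjusted p of 0.158. The 6 Gy arrays lay on both sides of the mock range. The 12 Gy difference was 1.91 ± 0.57 (SE). It was smaller in other fits, 0.59 with normexp and 0.30 ± 0.87 (SE) with slide as a fixed block (limma, adjusted p = 0.892). At 6 Gy it was 0.71 ± 0.57 (SE), and 0.28 within slide 2. Leaving out 6 Gy replicate 3 gave 0.12 and leaving out 6 Gy replicate 2 gave 1.51. In the other direction LOC115489115, a predicted gene, stood at 0.48 ± 0.28 in mock, then -0.43 ± 0.38 at 6 Gy and -0.26 ± 0.10 at 12 Gy (SD, n = 3), with limma's adjusted p of 0.189 and 0.165. None of the 26 matched probes that were tested passed limma's adjusted threshold in any comparison.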

How the data were processed

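Spot values came from Agilent Feature Extraction 10.7.1.1, per the file headers (the submitters' processing notes name it too). The deposited scanner values are processed intensity on a linear scale after background subtraction, not yet normalized across arrays. The authors' deposited table of log2 values (equal medians of 3.99 per array) was used as an alternative only, and how it was made is not given in the sources used here. Intensity was taken as log2 minus the 75th percentile of each array, 183 outlier-flagged spot values (89 of catalogue probes) were left out, and spots were averaged per probe. A probe counted as detected where a share of at least 0.5 of its spots was flagged well above background, and was tested if detected on all 3 arrays of at least 1 group. This left 32004 probes, among them 18150 catalogue probes. Entry through only the group where a probe is high favours a difference. Shares and medians are therefore also given over all catalogue probes or those detected on all 9 arrays. Limma 3.58.1 in R 4.3.3 was fitted over all tested probes (lmFit and eBayes, a mean per group), with Benjamini-Hochberg adjustment at 0.05. Precision is limited by the number of arrays.

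On simulated data with 200 of 32004 probes changed, the 12 Gy comparison recovered 76% of the 4-fold changes and 95% of the 8-fold ones, but 0% of the 2-fold ones. It also called 7, 3 and 0 unchanged probes, in that order. Each value was drawn independently from the probe's own mean and SD within groups. The simulated arrays had no slide effect and no difference in array quality, as the real ones may have. These shares are therefore not the power of the real comparison. The probes named in each comparison are those past the threshold or, since none passed, the first 2 in each direction by p. Genes matched at their start were named where tested or where their detection is described, and those shown were chosen after their values were seen. The members and lists were chosen with earlier results of these data known. Alternatives covered background, scaling, filters, the arrays fitted, blocks, variance trend, array weights and leaving out arrays.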

Additional observations from a re-analysis of the deposited data

How the results depend on the processing

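With 3 arrays per group and slides that mostly follow dose, 12 Gy and mock can be set side by side across slides only through the 6 Gy arrays. Alternatives were run for 16 differences of single probes, and 0 of these changed direction. Most of these probes were chosen by their small p on the same arrays. A change of direction was therefore unlikely from the start, and no support is drawn from its absence. The differences of the other probes named were not recomputed. With array quality weights (from 0.29 for mock replicate 1 to 5.77 for 12 Gy replicate 2) limma called 7165 catalogue probes between 12 Gy and mock, 3690 between 6 Gy and mock, 55 between the doses and 6788 over the 3 groups, and the cause was not tested. With each array left out in turn, limma made 0 to 2 calls between 12 Gy and mock, 0 to 1 between 6 Gy and mock, 0 to 2 between the doses and 0 to 3 over the 3 groups. The arrays whose removal gave calls were replicates 1 and 3 of mock and replicates 2 and 3 of 12 Gy. Median differences of tested catalogue probes were then 0.16 to 0.24 at 12 Gy and 0.17 to 0.28 at 6 Gy. These medians were 0.096 and 0.11 with quantile normalization, 0.073 and 0.070 relative to the median of detected probes, 0.096 and 0.11 in the authors' deposited values, and -0.00052 and 0.038 without the filter on dim probes. The 6 Gy median was 0.14 with normexp, and the 12 Gy median 0.32 with slide as a fixed block. With the flag for signal above background that needs no margin, 72.8% of catalogue probes were detected in mock, 71.5% at 6 Gy and 72.0% at 12 Gy. Detection with 1 array left out was 43.9% to 48.7% in mock, 46.0% to 49.1% at 6 Gy and 47.2% to 48.4% at 12 Gy. With a replicate block limma called 0 catalogue probes in each comparison, with 2415 higher and 473 lower at 12 Gy at an unadjusted p under 0.05. Deviations of same-numbered arrays correlated above 0.1 in only 3 of 9 pairs, and the pairing by number was not used. The other scalings, filters, blocks and the variance trend gave 0 calls. The planned translated match to proteins was not run.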

Other observations

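Some catalogue probes differed widely between arrays of 1 dose. A range of at least 4 log2 units over the 9 arrays was seen for 206 tested catalogue probes (1.13%) and for 43 of the other tested probes (0.310%), sets chosen by their values and given as a description. Within the 206, a block of 101 probes that varied together had median levels in mock of 1.31, 2.17 and 3.97, then 0.20, 1.97 and -2.37 at 6 Gy and -2.09, -1.54 and 2.86 at 12 Gy. The groups overlapped: 6 Gy replicate 2 and 12 Gy replicate 3 lay within the mock range, and the other irradiated arrays lay below it. A second block of 22 probes read 0.39, 2.58 and -2.52 in mock, then 2.19, 3.55 and 2.51 at 6 Gy and -0.86, 1.23 and 3.75 at 12 Gy. In another block, of 20 probes, 12 Gy replicate 3 was highest at 3.96 and mock replicate 1 lowest at -0.82. None of these probes has a gene name in the files.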
